A study of Mus musculus with 15 samples.

Results

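Glypicans and syndecans are the main families of heparan sulfate proteoglycans on the cell surface, and RNA-seq counted their mRNAs in aortas from mice given aldosterone and high salt (Aldo-salt). The genes were taken by symbol, *Gpc1* to *Gpc6* and *Sdc1* to *Sdc4*, which gave 10 of the 24982 genes counted. The filter on low counts was passed by 9 of the 10, all but *Gpc5*, and by 14121 genes in all. The families were chosen by the measured values of *Gpc3*, which fell with dihydrotestosterone (DHT) against orchiectomized mice with one of the smallest P values in these data. The values of *Gpc3* are therefore given as a description with no P value, and the other members were taken for their family names.

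All 15 mice were male, wild-type (WT) C57BL/6 animals aged 10 months, and each library came from the aorta of a mouse harvested on day 7 of Aldo-salt. The control group (n = 5) was sham-operated. The orchiectomized group (n = 5) had lost the gonadal source of androgen. The DHT group (n = 5) was orchiectomized and received a DHT pellet together with Aldo-salt. After 2 weeks of recovery from surgery, every group, controls included, received aldosterone at 200 µg/kg/d by osmotic minipump and drinking water with 0.9% NaCl and 0.2% KCl, so no group here shows aortas without Aldo-salt. The comparison of orchiectomized with control mice asks what the loss of androgen changed, and the comparison of DHT with orchiectomized mice asks what its return changed. These comparisons share the orchiectomized mice, and the third, of DHT with control mice, shares mice with both.

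A glypican is held in the outer leaf of the plasma membrane by a glycosylphosphatidylinositol anchor, whereas a syndecan spans the membrane and carries a short cytoplasmic tail. The heparan sulfate chains of both families bind growth factors, morphogens and matrix proteins, and the chains or the whole ectodomain can be cut off at the cell surface. *Gpc3* is known as a brake on hedgehog signaling and on body growth, and syndecans act as coreceptors for fibroblast growth factors and as partners of integrins.

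The libraries held 8268957 to 13816864 reads assigned to genes, with a median of 10930079, and levels are given as CPM, that is, counts scaled to the size and composition of the library. The labelled tissue was borne out by its markers: the 8 smooth muscle genes summed to between 11200 and 25000 CPM in every library. Orchiectomized replicate 2 stood apart. A list of 6 epithelial genes summed to 718 CPM there and to at most 23.9 CPM in any other library, with *Epcam* at 66.5 CPM against at most 0.437 elsewhere and *Krt8* at 278 CPM against at most 6.99 elsewhere. The same library had the lowest smooth muscle sum and the highest mesothelial sum, 525 CPM, which is partly the keratins that both cell types express. Where a call changed when this library was left out, that is stated. In whole tissue, fewer cells of a type and less RNA per cell cannot be told apart.

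The sequence just upstream of *Gpc3*, the member with the largest change, and of *Sdc1*, the member called lower with DHT, is shown because androgen receptor binding was part of the question the study asked of its genes. *Gpc3* lies on the minus strand of chromosome X at 52272426 to 52613950, and *Sdc1* on the plus strand of chromosome 12 at 8771323 to 8793715 (GENCODE vM21 on GRCm38). The 250 bases before *Gpc3* are chrX:52613975-52614224 on the minus strand and the 177 bases before *Sdc1* are chr12:8771146-8771322 on the plus strand, both from RefSeq on GRCm38.p6. Capitals mark the GC box letters GGGCGG or their complement CCGCCC.
Gpc3: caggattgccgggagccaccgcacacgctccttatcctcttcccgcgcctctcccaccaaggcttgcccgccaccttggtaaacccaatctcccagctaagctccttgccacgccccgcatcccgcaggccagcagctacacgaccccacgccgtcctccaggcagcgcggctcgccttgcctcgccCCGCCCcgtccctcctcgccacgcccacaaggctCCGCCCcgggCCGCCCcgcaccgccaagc
Sdc1: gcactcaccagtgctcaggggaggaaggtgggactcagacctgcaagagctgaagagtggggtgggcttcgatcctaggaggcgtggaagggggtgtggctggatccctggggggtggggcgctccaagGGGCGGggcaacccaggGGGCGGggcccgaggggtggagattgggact
A window of 300 bases, 250 before and 50 after the start, was held for 7 of the 10 members, namely *Gpc2*, *Gpc3*, *Gpc4*, *Gpc5*, *Sdc1*, *Sdc3* and *Sdc4*. The letters AGAACA or their complement TGTTCT, the core of an androgen response element, were searched on both strands and were in none of the 7 windows, against 19.0% of all 32851 windows. A GC box was in all 7, with 4 matches in the window of *Gpc3* and 3 in that of *Sdc1*, against 35.7% of all windows. The upstream letters printed for *Gpc3* hold 3 of its 4 matches and those for *Sdc1* hold 2 of its 3.

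*Gpc3* mRNA was lower in every DHT aorta than in any other aorta. In control aortas, replicates 1 to 5 had 70.9, 73.0, 83.6, 108 and 91.2 CPM. In orchiectomized aortas, they had 114, 161, 158, 136 and 94.6 CPM. In DHT aortas, they had 40.4, 63.8, 34.9, 32.1 and 38.6 CPM. The DHT group did not overlap with either of the others, while orchiectomized replicate 5 lay within the control range and the other 4 orchiectomized libraries above it. DHT replicate 2 was the highest of its group. Group means were 85.3 ± 15, 133 ± 28.7 and 42.0 ± 12.6 CPM (SD, n = 5 each).

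On the log2 scale *Gpc3* was 1.66 lower with DHT than in orchiectomized mice (log2 fold change -1.66, SE 0.199, which is 3.16-fold). It was 1.02 lower with DHT than in control mice (log2 fold change -1.02, SE 0.197, 2.03-fold) and 0.64 higher in orchiectomized than in control mice (SE 0.194, 1.56-fold), or 0.55 higher without orchiectomized replicate 2 (SE 0.204). Leaving out 1 library at a time moved the difference between DHT and orchiectomized mice between -1.86, without DHT replicate 2, and -1.55, without orchiectomized replicate 3, and without orchiectomized replicate 2 it was -1.56. No exon of *Gpc3* is shared with another annotated gene.

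**Figure D1:**
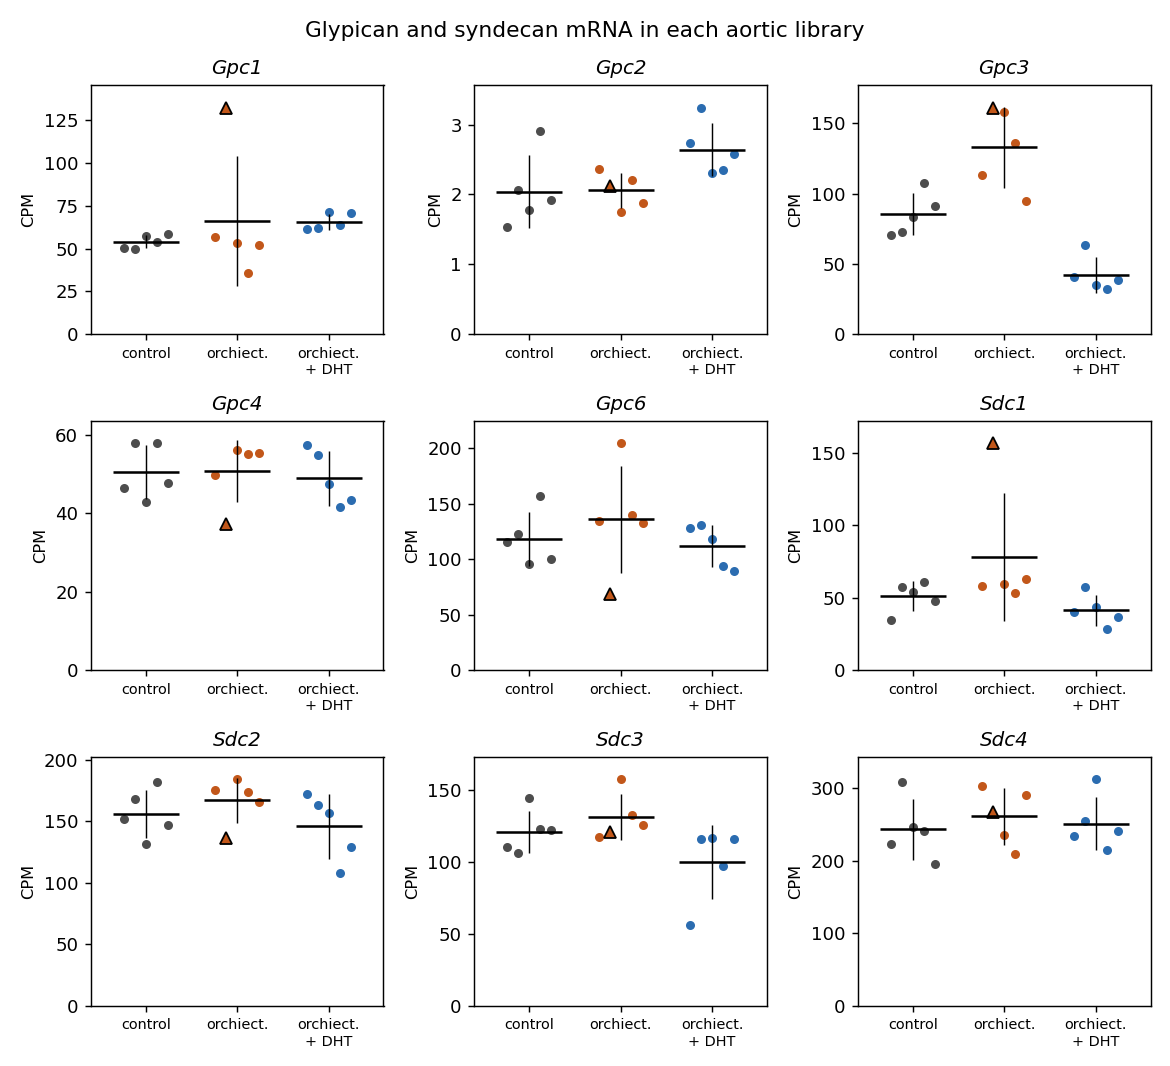
Levels of the 9 tested members in CPM (vertical axes from 0) in control, orchiectomized and orchiectomized + DHT aortas. Points are libraries, placed by replicate number, horizontal lines are group means, vertical lines are ± SD (n = 5), and the outlined triangle is orchiectomized replicate 2. *Gpc3* lies at 32.1 to 63.8 CPM with DHT, below all other libraries, and *Gpc1* and *Sdc1* have 1 far point, the triangle, at 132 and 157 CPM.

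The makeup of the glypican family differed between the groups along with *Gpc3*. Levels of different genes were compared per kilobase of their merged exons. Per kilobase, *Gpc3* was the largest glypican in control aortas, at 31.7 ± 5.59 CPM, and in orchiectomized aortas, at 49.3 ± 10.7 CPM (SD, n = 5). With DHT it was at 15.6 ± 4.69 CPM per kilobase, and *Gpc4*, at 18.5 ± 2.63, and *Gpc6*, at 17.4 ± 3.00, overlapped it. Its share of the summed glypican level was 39.5% ± 3.61 in control, 47.6% ± 5.19 in orchiectomized and 23.7% ± 4.08 in DHT aortas. The DHT shares, 20.4% to 30.6%, did not overlap with those of the other groups, 34.7% to 54.1%. The shares and the summed glypican level contain the *Gpc3* values by which the families were chosen. They restate those values and are given as a description. The summed glypican level was 80.1 ± 10.2, 103 ± 14.1 and 64.9 ± 8.81 CPM per kilobase in the same order, and the summed syndecan level was 173 ± 20.1, 192 ± 15.7 and 167 ± 22.4. Syndecan sums overlapped between all 3 groups.

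**Figure D2:**
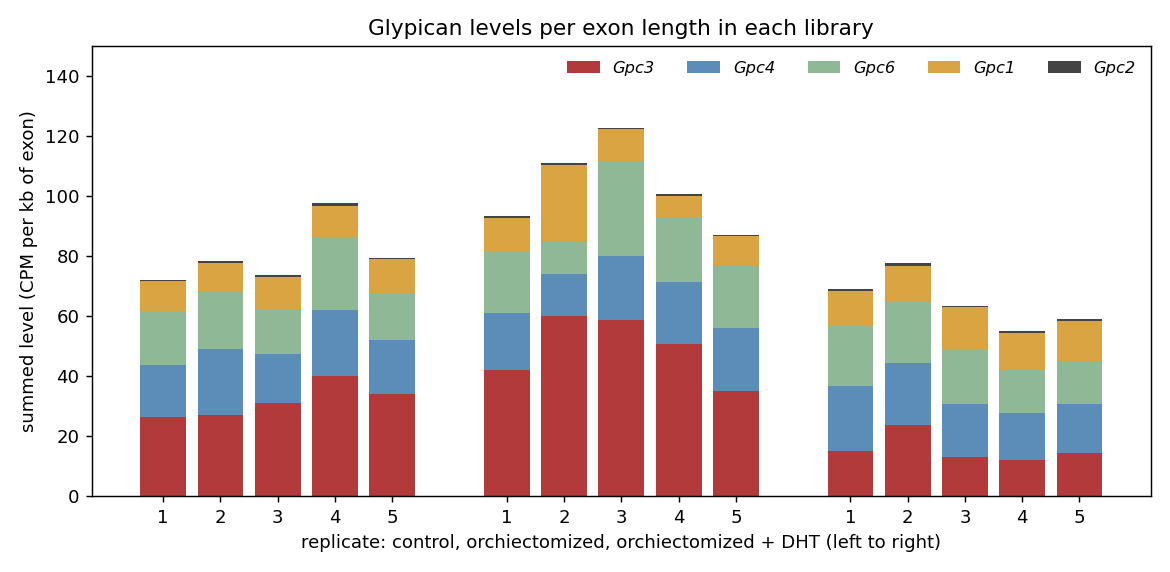
Levels of 5 glypican mRNAs per kilobase of merged exon, stacked for each library, in CPM per kilobase; *Gpc5*, with 0 to 2 counts, is left out. The *Gpc3* segment takes 34.7% to 54.1% of the stack in control and orchiectomized libraries and 20.4% to 30.6% with DHT, while the *Gpc4* segment keeps a like height across the groups.

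Over all 15 libraries, *Sdc4* was the most abundant member at 98.8 ± 14.6 CPM per kilobase, followed by *Sdc2* at 44.3 ± 6.25 and *Gpc3* at 32.2 ± 15.9. The rank of *Gpc3* depended on the group: its mean was above that of *Sdc2* (47.4 ± 5.22) in orchiectomized aortas, and with DHT it was below those of *Gpc4*, *Gpc6* and *Sdc3* (16.8 ± 4.35), though within their spread. Per kilobase of the longest transcript, *Gpc3* with DHT, at 18.9, was instead just above *Gpc4*, at 18.5. *Sdc3* (19.6 ± 3.74), *Gpc6* (19.0 ± 5.04) and *Gpc4* (18.9 ± 2.57) formed a middle rank whose neighbors did not differ beyond their spread, and *Sdc1* (14.9 ± 7.77) and *Gpc1* (12 ± 4.14) came next. *Gpc2* was at 0.526 ± 0.11 CPM per kilobase. The rank of *Gpc6* depends on the length used: per kilobase of its longest transcript it was at 29.5 CPM. *Gpc5*, best known from the nervous system, had 1 count in orchiectomized replicate 2, 2 counts in DHT replicate 4 and 0 counts in the other 13 libraries, which allows up to 0.206 to 0.385 CPM there. That limit is 3 counts per library and covers counting error only.

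None of the 8 tested members other than *Gpc3* was called after orchiectomy alone. A gene was called at an unadjusted P below 0.01 in edgeR, which 2.08% of all genes tested passed as higher and 1.13% as lower. The count of called members was also 0 with DESeq2 and with limma voom, and 1 of the 8, *Sdc1*, had an unadjusted P below 0.05, as 1692 genes (12%) had. All 8 had a higher fitted level in orchiectomized than in control mice, although *Gpc2* and *Gpc4*, both near 0, were on the other side of 0 with RLE size factors. That of *Gpc1* (log2 fold change 0.29) was -0.14 without orchiectomized replicate 2 and -0.083 with limma voom, and that of *Gpc6* (0.20) was -0.0185 without orchiectomized replicate 3 and 0.35 without orchiectomized replicate 2. Their median log2 fold change was 0.11 beside 0.04 over all genes tested. No member passed an adjusted P of 0.05 in edgeR, nor did any gene (0%). None of the members had groups that did not overlap, against 1.51% of all genes.

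With DHT, 7 of the 8 members other than *Gpc3* had a lower fitted level than in orchiectomized mice, of which *Gpc1*, near 0, was above 0 with RLE size factors. The median log2 fold change of the 8 was -0.13 beside -0.02 over all genes. Of the 8, 1 was called lower, *Sdc1*, where 7.27% of all genes tested were called lower, and 0 were called higher, where 2.46% of genes were. Without orchiectomized replicate 2 the call moved from *Sdc1* to *Gpc1*, which was then called higher. None of the 8 reached an adjusted P below 0.05 in edgeR, as 4.72% of all genes did, while 2 of them, *Sdc1* and *Sdc3*, had an unadjusted P below 0.05, as 21.2% of all genes had. *Sdc3* was the 1 member of the 8 whose DHT libraries all lay below the orchiectomized libraries, where 4.34% of all genes did so, and 0 lay wholly above, where 2.09% did so. Against control mice, DHT gave 0 calls among the 8 in edgeR, DESeq2 and limma voom, where 2.01% of genes were called lower and 1.52% higher in edgeR. None of the 8 had an unadjusted P below 0.05 there, as 11.8% of genes had, or passed an adjusted P of 0.05, as 0.262% of genes did. In that comparison *Gpc1* lay above control in every DHT library, where 1.78% of all genes did so, and none of the 8 lay wholly below, where 1.79% did so.

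**Figure D3:**
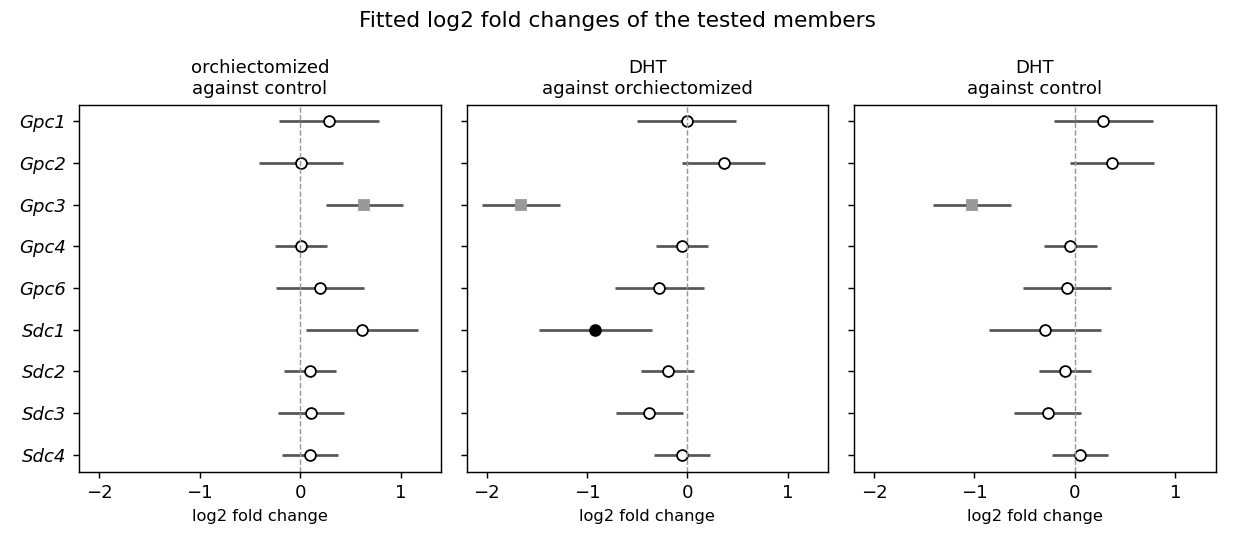
Fitted log2 fold changes (horizontal axis) of the 9 tested members in the 3 comparisons, with approximate 95% confidence intervals. Gray squares are *Gpc3*, shown without a test and with its interval as a description only. The filled circle, *Sdc1* in DHT against orchiectomized, passed the unadjusted P of 0.01, and open circles did not.

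Among the other glypicans, *Gpc4* and *Gpc6* are the closest relatives of each other in the family and are widely expressed in mesenchyme. *Gpc4* also is the neighbor of *Gpc3* on chromosome X, 107173 bases away on the same strand. *Gpc4* had means of 50.5 ± 6.91, 50.7 ± 7.95 and 48.9 ± 6.97 CPM in control, orchiectomized and DHT aortas (SD, n = 5). Its log2 fold change with DHT against orchiectomized mice was -0.05, with a 95% interval from -0.312 to 0.209. *Gpc6* had means of 118 ± 24.5, 136 ± 48.1 and 112 ± 19.3 CPM, and its log2 fold change was -0.28 (95% interval -0.72 to 0.162). Without orchiectomized replicate 2, which had the lowest *Gpc6* of its group at 68.7 CPM, that log2 fold change was -0.43 (SE 0.18, unadjusted P = 0.0298, adjusted P = 0.193 in edgeR), and without orchiectomized replicate 3, the highest of its group at 204 CPM, it was -0.06 (SE 0.215, unadjusted P = 0.783). *Gpc6* was not called in any of these fits.

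*Gpc1*, the glypican of neurons, skeletal muscle and endothelium, was dominated by orchiectomized replicate 2. In control aortas it had 50.4, 50.01, 57.1, 54.0 and 58.8 CPM in replicates 1 to 5. In orchiectomized aortas it had 56.6, 132, 53.5, 36 and 51.9 CPM. In DHT aortas it had 61.4, 61.9, 71.1, 63.7 and 70.6 CPM. Every DHT library was thus above every control library, and above every orchiectomized library but replicate 2. With all libraries no difference was called between the DHT group and the orchiectomized group (log2 fold change -0.01, SE 0.251, unadjusted P = 0.98) or the control group (0.28, SE 0.252, unadjusted P = 0.281). Without orchiectomized replicate 2, *Gpc1* was called higher with DHT than in orchiectomized mice, by 0.43 (SE 0.112, unadjusted P = 0.00185, adjusted P = 0.0561 in edgeR), where 3.13% of all genes were called higher. Against control mice *Gpc1* was not called without that library (0.28, SE 0.105, unadjusted P = 0.017, adjusted P = 0.248 in edgeR) and was called higher with DHT in a fit of DHT and control libraries alone (0.28, SE 0.081, unadjusted P = 0.00502, adjusted P = 0.166 in edgeR). Skeletal muscle markers, a list of 8 genes, summed to 41.3 to 501 CPM in control, 10.8 to 185 CPM in orchiectomized and 79.8 to 463 CPM in DHT libraries. Of the 8, 4 were called higher with DHT than in orchiectomized mice, beside 2.46% of all genes. Without orchiectomized replicate 2 it was 6, beside 3.13% of all genes. Against control mice, 1 of the 8 was called higher with DHT, beside 1.52% of all genes. The part of these markers in the *Gpc1* values was not tested. The exons of *Gpc1* share 977 bases with *Ankmy1* on the opposite strand, and without a stated strand setting the reads of that stretch cannot be told apart. *Gpc2*, a glypican of the developing nervous system, was low, at 17 to 41 counts per library, and had means of 2.04 ± 0.52, 2.06 ± 0.251 and 2.64 ± 0.379 CPM. Its log2 fold change with DHT was 0.36 against orchiectomized (unadjusted P = 0.109) and 0.37 against control mice (unadjusted P = 0.0995), and it shares 2376 exonic bases with *Gm43720* on the same strand.

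Of the syndecans, *Sdc1*, the syndecan of epithelia and plasma cells, was called lower with DHT. It had 34.6, 57.6, 53.9, 60.6 and 47.6 CPM in control replicates 1 to 5. In orchiectomized replicates it had 57.9, 157, 59.3, 53.2 and 63.1 CPM. In DHT replicates it had 39.8, 57.7, 43.6, 28.6 and 36.8 CPM. Orchiectomized replicate 2 was far above the rest, and the other 4 orchiectomized libraries, 58.4 ± 4.08 CPM (SD, n = 4), overlapped with both other groups. The log2 fold change with DHT against orchiectomized mice was -0.92 (SE 0.286, unadjusted P = 0.0059, adjusted P = 0.0795 in edgeR). Without orchiectomized replicate 2 it was -0.48 (SE 0.181, unadjusted P = 0.0184) and the call was lost, and with limma voom it was -0.50 (unadjusted P = 0.0216). The call was also lost, at a log2 fold change of -0.78 to -0.91, without DHT replicate 1, 3, 4 or 5 (unadjusted P = 0.013, 0.0112, 0.0189 and 0.0159), and at -0.88 in a fit of these groups alone (unadjusted P = 0.0144). Orchiectomized against control, *Sdc1* had a log2 fold change of 0.62 (unadjusted P = 0.0461), which was 0.19 without that library. The epithelial list stood at 718 CPM and a plasma cell list at 523 CPM in that library, against at most 23.9 and 310 CPM in the others, and their part in the *Sdc1* and *Gpc1* values was not tested.

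*Sdc3*, best known from nerve and muscle precursors, had its lowest values with DHT. It had 111, 106, 144, 123 and 122 CPM in control, 117, 121, 158, 132 and 126 CPM in orchiectomized and 56.2, 116, 117, 97.0 and 116 CPM in DHT replicates 1 to 5. The highest DHT library lay just below the lowest orchiectomized library, and DHT replicate 1 was far below its group. The log2 fold change with DHT against orchiectomized mice was -0.38 (SE 0.17, unadjusted P = 0.0399, adjusted P = 0.209 in edgeR), which did not pass the threshold, and was -0.23 without DHT replicate 1. *Sdc3* shares at most 415 exonic bases with a gene on the opposite strand, *Gm12970* or *Gm26716*. *Sdc2*, the syndecan of fibroblasts and other mesenchymal cells, had means of 156 ± 19.5, 167 ± 18.4 and 146 ± 26.4 CPM (SD, n = 5), and its log2 fold change with DHT was -0.20 (95% interval -0.459 to 0.063). Leaving out 1 library at a time moved that value between -0.264, without DHT replicate 1, and -0.089, without DHT replicate 4. *Sdc4*, the widely expressed syndecan of focal adhesions, had means of 243 ± 41.9, 261 ± 39.0 and 251 ± 36.9 CPM, and its log2 fold change with DHT was -0.06 (95% interval -0.334 to 0.223).

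Across libraries, *Gpc4*, *Gpc6* and *Sdc2* varied together, and 3 of the 28 pairs of members passed adjustment by both measures. Over the 15 libraries, and leaving *Gpc3* out, the pairs were correlated on log2 CPM with 100000 permutations each and adjusted over the 28. *Gpc4* and *Gpc6* had Pearson r = 0.859 (permutation P = 3e-05, adjusted 0.00084) and Spearman rho = 0.821 (permutation P = 0.00043, adjusted 0.00401), and r was 0.759 without the 2 libraries farthest from the median. *Gpc4* and *Sdc2* had r = 0.843 (permutation P = 0.00011, adjusted 0.00103) and rho = 0.85 (permutation P = 0.00016, adjusted 0.00224), with r = 0.881 without those 2 libraries. *Gpc6* and *Sdc2* had r = 0.813 (permutation P = 1e-04, adjusted 0.00103) and rho = 0.943 (permutation P = 1e-05, the smallest that these permutations can give, adjusted 0.00028), with r = 0.906 without 2 libraries. These relations held inside the groups, with r of 0.869, 0.885 and 0.808 after the group means were subtracted. Orchiectomized replicate 2 was the lowest of its group for all 3 genes. *Gpc1* and *Gpc4* ran in opposite directions (r = -0.679, permutation P = 0.0031, adjusted 0.0214), but rho = -0.593 did not pass after adjustment (permutation P = 0.022, adjusted 0.105) and r was -0.477 without the 2 outermost libraries.

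The genes whose levels followed *Gpc3* most closely over the 15 libraries were *Kif11*, a mitotic kinesin, *Mmp2*, a gelatinase, *Ces2g*, a carboxylesterase, *Ptgs1*, which encodes cyclooxygenase 1, and *Stxbp6*, a regulator of vesicle fusion. Their Pearson r with *Gpc3* on log2 CPM was 0.970, 0.963, 0.960, 0.958 and 0.958. These are descriptions, because the points share libraries and the same group differences, and 52 genes had r above 0.9. Among the other members *Sdc1* came nearest, with r = 0.731 at rank 757 of 14120 genes, followed by *Sdc3* at 0.588. *Gpc4* had r = 0.152 and *Gpc1* -0.0861. After the group means were subtracted the gene most like *Gpc3* was *Hpse*, the heparanase that cuts heparan sulfate chains, with r = 0.937 and r = 0.947 before subtraction.

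Markers of other cell layers differed with DHT along with *Gpc3*. The 9 mesothelial genes, among them *Upk3b*, *Msln* and *Wt1*, were all called lower with DHT than in orchiectomized mice, where 7.27% of all genes were, with a median log2 fold change of -3.05. Without orchiectomized replicate 2, 8 of the 9, all but *Rspo1*, were called lower and the median was -2.36. Their sum was 45.8 to 115 CPM in control, 61.1 to 525 CPM in orchiectomized and 13.6 to 37.3 CPM in DHT libraries, and none of the 9 was at 0 in every library of a group. Of the 9 adventitial fibroblast genes, 3 (33.3%) were called lower, *Lum*, *Dpt* and *Mfap5*, and 5 without orchiectomized replicate 2, with *Col1a1* and *Col3a1* added. The fibroblast list summed to 4510 to 6660, 4500 to 7350 and 3230 to 5160 CPM in the same order. The smooth muscle sum was 14300 to 20500, 11200 to 20700 and 20100 to 25000 CPM, with 0 of its 8 genes called in this comparison, all 8 having a positive log2 fold change, and 1, *Des*, called higher without orchiectomized replicate 2. Of 8 endothelial genes, 3 were called lower, *Tek*, *Vwf* and *Pecam1*, and the list summed to 821 to 1220, 914 to 1460 and 681 to 894 CPM. Immune lists were lower as well, with 2 of 7 macrophage genes (1 without orchiectomized replicate 2), 5 of 5 tested B cell genes and 5 of 5 tested T cell genes called lower. Orchiectomized against control, where *Gpc3* was 0.64 higher, 0 mesothelial, fibroblast, endothelial and macrophage genes were called in edgeR. The list medians were 0.61, 0.16, 0.11 and 0.12 (0.27, 0.17, -0.02 and 0.20 without orchiectomized replicate 2). Of the genes in these lists 2, *Krt7* and *Krt19*, had an unadjusted P below 0.05 in edgeR, as 12% of all genes had. By contrast, 5 of 5 B cell genes and 4 of 5 T cell genes (3 without orchiectomized replicate 2) were called higher, beside 2.08% of all genes. With DHT against control mice, where *Gpc3* was 1.02 lower, 6 of 9 mesothelial genes (8 without orchiectomized replicate 2), 3 of 9 fibroblast and 3 of 8 endothelial genes were called lower, beside 2.01% of all genes, with list medians of -2.22, -0.45 and -0.22. In the same comparison 0 of 8 smooth muscle genes were called in edgeR, and 3 were called higher without that library. The part of these cells in the *Gpc3* values was not tested. DHT replicate 2, the DHT library with the most *Gpc3*, also had the highest mesothelial and fibroblast sums of its group. Its macrophage and T cell sums were the highest of the group too. Orchiectomized replicate 2, with the most *Gpc3* of its group, had the highest mesothelial but the lowest fibroblast sum there, 525 and 4500 CPM. Control replicate 4, with the most *Gpc3* among controls, had the highest fibroblast sum of its group, 6660 CPM. Its mesothelial sum, 80.3 CPM, was below those of control replicates 1 and 5.

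**Figure D4:**
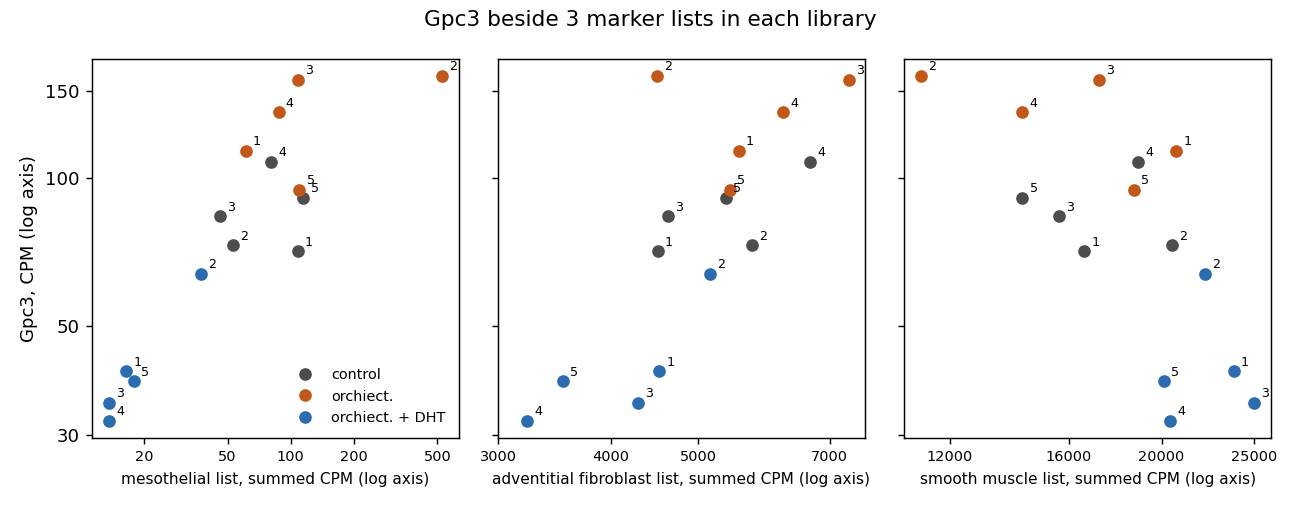
*Gpc3* level in CPM (vertical log axis) against the summed CPM of the mesothelial, adventitial fibroblast and smooth muscle lists (horizontal log axes), 1 point per library with its replicate number. DHT libraries sit at the low end of the mesothelial list, 13.6 to 37.3 CPM, and overlap with the other groups on the fibroblast list.

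The same *Gpc3* values can be described relative to these lists. The log2 CPM of *Gpc3* minus the mean log2 CPM of the 9 fibroblast genes was -2.24 to -1.98 in control, -1.76 to -1.20 in orchiectomized and -2.97 to -2.37 in DHT libraries. Relative to the mesothelial list it was 2.98 to 4.47, 2.69 to 4.44 and 4.38 to 4.75. With DHT against orchiectomized mice, 8 of the 9 mesothelial genes had a lower log2 fold change than *Gpc3*, and *Rspo1*, at -1.09, did not. These values include those that chose *Gpc3*, and nothing is read from them about a cell type.

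The enzymes that build heparan sulfate and the partners of both families were described by 6 lists of 86 genes, 77 of which passed the filter. With DHT against orchiectomized mice, 16 of the 77 (20.8%) were called lower and 0 were called higher, where 7.27% and 2.46% of all genes were, and 8 of the 16 passed an adjusted P of 0.05 in edgeR, 5 of them also without orchiectomized replicate 2 (not *Hpse*, *Papss1* and *Ptch1*). *Fgfr3* passed it only without that library (adjusted P = 0.0499 in edgeR), which gave 6 in all. The median log2 fold change of the 77 was -0.12 beside -0.02 over all genes. Without orchiectomized replicate 2, 10 genes were called lower, all of them among the 16, where 5.26% of all genes were. The genes no longer called were *Adam17*, *Fgf7*, *Hgf*, *Hs3st3b1*, *Mdk* and *Ndst2*, whose log2 fold changes were then -0.30, -0.63, -1.10, -0.68, -0.63 and -0.36. The count was also 10 without orchiectomized replicate 3 or DHT replicate 1, 3 or 5. Orchiectomized against control, 2 genes (2.6%) were called higher, *Mmp2* and *Mdk*, near the 2.08% of all genes, and 0 lower. With 1 library left out at a time, *Mmp2* (log2 fold change 0.47) kept its call in 5 of 15 fits and *Mdk* (0.75) in 9 of 15. Their log2 fold changes were 0.38 and 0.68 without orchiectomized replicate 2, and both calls were lost (unadjusted P = 0.0252 and 0.013 in edgeR). DHT against control gave 4 of the 77 (5.19%) called lower and 0 higher, beside 2.01% and 1.52% of all genes, *Ugdh*, *Mmp2*, *Srgn* and *Hgf*. In that comparison 0 of the 77 passed an adjusted P of 0.05 in edgeR, where 0.262% of all genes did. The count called lower was 5 without orchiectomized replicate 2, with *Fgfr3* added, and 8 without control replicate 1, 2 without control replicate 3 and 1 without control replicate 5.

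**Figure D5:**
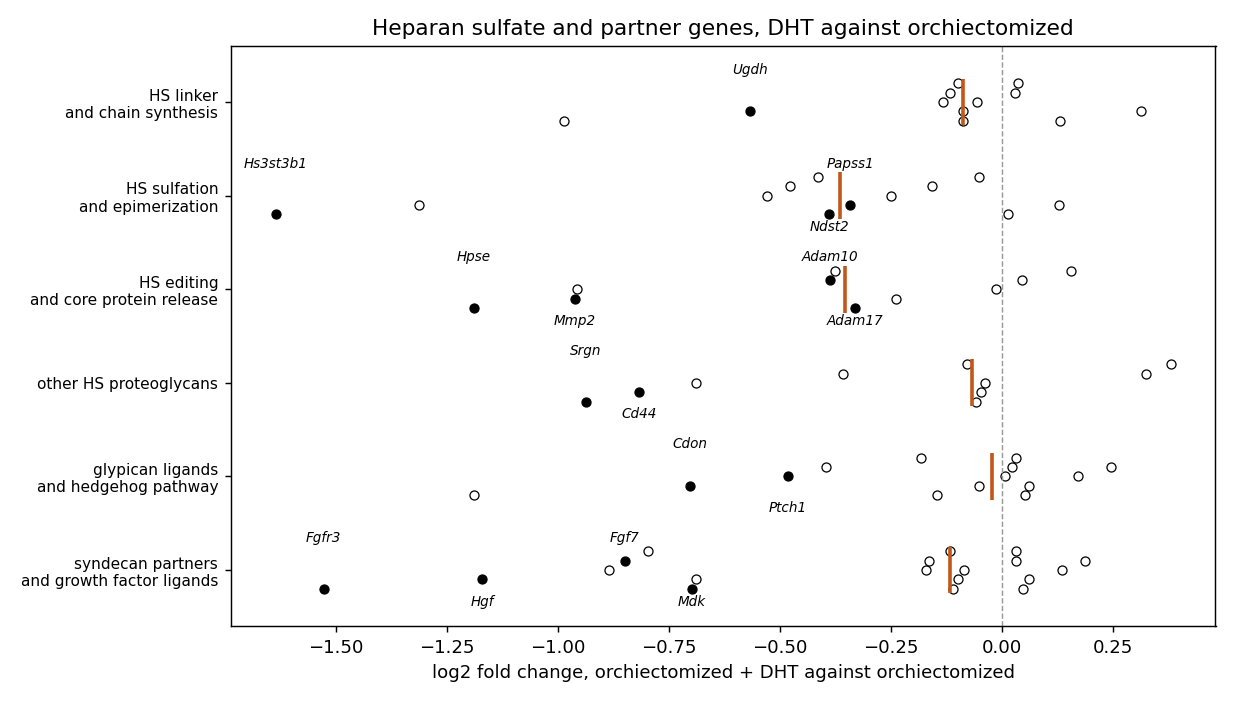
Log2 fold changes of 77 heparan sulfate and partner genes with DHT against orchiectomized mice (horizontal axis), 1 row per list. Filled points with names passed the unadjusted P of 0.01, open points did not, and vertical bars are list medians, which run from -0.365 to -0.0225. All 16 filled points lie left of 0.

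The counts of single lists in this comparison stand beside the 7.27% of all genes called lower. Of 12 genes for the linker and chain backbone, 1 (8.33%, near that share) was called lower, *Ugdh*, the dehydrogenase that makes UDP-glucuronic acid. *Ugdh* had 80.0, 80.9, 97.2, 89.6 and 79.1 CPM in orchiectomized and 66.1, 60.1, 57.4, 54.1 and 50.4 CPM in DHT replicates 1 to 5, with no overlap, and its control libraries had 67.2 to 84.4 CPM. Its log2 fold change with DHT was -0.57 (SE 0.0937, adjusted P = 0.00777 in edgeR). Of 12 tested sulfation and epimerization genes, 3 (25%) were called lower, and 1 without orchiectomized replicate 2, *Papss1*. *Papss1*, which makes the sulfate donor, fell by 0.34 on the log2 scale (SE 0.0835, adjusted P = 0.0329 in edgeR), from 69.5 to 76.5 CPM in orchiectomized libraries to 51.3 to 63.5 CPM with DHT. *Ndst2*, an N-deacetylase and N-sulfotransferase, had a log2 fold change of -0.39 (adjusted P = 0.0877 in edgeR). *Hs3st3b1*, a 3-O-sulfotransferase, was at -1.64 with all libraries and at -0.68 without orchiectomized replicate 2.

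Enzymes that cut chains or release core proteins were called lower with DHT in 4 of 10 tested genes (40%, and 3 without orchiectomized replicate 2). *Mmp2* had 122, 115, 149, 155 and 137 CPM in control, 179, 232, 207, 189 and 137 CPM in orchiectomized and 96.7, 120, 98.3, 70.6 and 98.5 CPM in DHT replicates 1 to 5. The DHT and orchiectomized groups did not overlap, and the log2 fold change was -0.96 (SE 0.153, adjusted P = 0.00676 in edgeR). *Hpse* was low, at 7.65 to 15.7 CPM in orchiectomized and 2.96 to 8.11 CPM in DHT libraries, and fell by 1.19 on the log2 scale (SE 0.278, adjusted P = 0.0276 in edgeR). The sheddases *Adam10* and *Adam17*, which cut syndecan ectodomains, had log2 fold changes of -0.39 and -0.33 (adjusted P = 0.0933 and 0.0817 in edgeR). With 1 library left out at a time, *Adam10* kept its call in 5 of 15 fits and *Adam17* in 6 of 15. Of 10 other heparan sulfate proteoglycans, 2 (20%) were called lower, *Cd44*, the hyaluronan receptor, at -0.82 (SE 0.161, adjusted P = 0.016 in edgeR), and *Srgn*, the granule proteoglycan of blood cells, at -0.94 (SE 0.185, adjusted P = 0.016 in edgeR). *Srgn* had 29.6 to 55.8 CPM in orchiectomized and 19.0 to 21.5 CPM in DHT libraries. T cell markers summed to 6.57 to 67.0 CPM and 3.16 to 5.59 CPM in the same groups, and their part in the *Srgn* and *Cd44* values was not tested.

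Among 14 tested hedgehog pathway genes and glypican ligands, 2 (14.3%, beside 7.27% of all genes) were called lower with DHT, the coreceptor *Cdon* and the receptor *Ptch1*, which is also a transcriptional target of the pathway. *Cdon* had 62.7 to 97.3 CPM in orchiectomized and 34.1 to 55.8 CPM in DHT libraries, without overlap, and fell by 0.70 (SE 0.171, adjusted P = 0.0323 in edgeR). *Ptch1* had 44.7 to 71.4 CPM in orchiectomized and 35.2 to 46.1 CPM in DHT libraries, which overlapped, and fell by 0.48 (SE 0.122, adjusted P = 0.0367 in edgeR). Orchiectomized against control, the same genes had log2 fold changes of 0.31 for *Cdon* and 0.24 for *Ptch1*, and neither passed the threshold. The list median with DHT against orchiectomized mice was -0.02 (-0.09 without orchiectomized replicate 2), and 7 of its 14 genes had a positive log2 fold change.

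Among 19 growth factors, receptors and matrix partners of syndecans, 4 (21.1%, beside 7.27% of all genes) were called lower with DHT, and 1 without orchiectomized replicate 2, *Fgfr3*. *Fgfr3*, a fibroblast growth factor receptor, was at -1.53 (SE 0.437) with all libraries and at -0.63 without orchiectomized replicate 2, in which it had 67.0 CPM against 10.8 to 15 CPM in the rest of its group. *Hgf* was at -1.17 (SE 0.379) and *Fgf7* at -0.85 (SE 0.253). *Mdk*, the heparin-binding growth factor midkine, had 9.69, 8.43, 8.34, 13.0 and 8.12 CPM in control, 24.8, 17.9, 14.8, 11.5 and 11.4 CPM in orchiectomized and 9.83, 10.9, 13.3, 7.03 and 8.27 CPM in DHT replicates 1 to 5. Its log2 fold change was 0.75 (SE 0.232) after orchiectomy and -0.70 (SE 0.233) with DHT. The adjusted P values with DHT in edgeR were 0.0584, 0.0894, 0.0676 and 0.0971 in the order *Fgfr3*, *Hgf*, *Fgf7* and *Mdk*. With all libraries, none of the 4 passed 0.05. Leaving out 1 library at a time, their calls were kept in 15, 5, 9 and 4 of 15 fits in the same order. Under the alternatives, their log2 fold changes came as near to 0 as -0.704, -1.055, -0.3994 and -0.3626.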

How the data were processed

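Aortas were cleaned in RNAlater and poly(A) RNA was made into cDNA libraries with inserts of 250 to 300 bp. The authors deposited 1 table of raw read counts per gene for each of 15 libraries (5 per group), and all 15 were used, with 0 unmapped columns. The submitters' processing notes name STAR, Cufflinks, DESeq2 and mm10 without versions or roles. The counting program, annotation and strand setting are not given in the sources used here. Rows that name no gene held unassigned reads (no feature, 6.26% to 14.4%, and ambiguous, 1.34% to 1.97%) and were left out of library sizes.

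Genes were filtered with filterByExpr (minimum count 10, minimum total 15), scaled by TMM and tested with edgeR 4.0.16 (limma 3.58.1, R 4.3.3) by the quasi-likelihood test on all 3 groups, without covariates. Calls used an unadjusted P below 0.01, the level the study used, beside Benjamini-Hochberg adjusted P over all tested genes. The common biological coefficient of variation was 0.297. A depth of 10 counts corresponds to 0.687 to 1.28 CPM. The script was tested on simulated counts. Correlations used log2 CPM with a prior count of 3. Exon lengths, overlaps and coordinates came from GENCODE vM21, and upstream sequences from RefSeq (window found for 7 of 10 members, not for *Gpc1*, *Gpc6* and *Sdc2*). Protein sequences were not used here. A result of the hedgehog list is not reported here, and the gene was left out of the counts of that list.

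The members and all gene lists were chosen with earlier results of these data known. Named genes were the 10 members, up to 4 called genes per pathway list, the 5 genes most like *Gpc3* and the markers. Alternatives were DESeq2 1.42.0, RLE size factors, 2 other filters on low counts (at least 1 count in any library, or at least 10 in every library), fitting just the pair of groups at hand, a robust fit, the labels' replicate numbers as a block, limma voom with quality weights, an adjusted threshold, and leaving out each library in turn. Figures were drawn with matplotlib.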

Additional observations from a re-analysis of the deposited data

Results flagged for a closer look

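In 5 of 29 groups of 5 libraries examined over the 10 members, 1 library lay far from the other 4, with a gap of more than 0.71 of the range of the group. In 2 of the 5 the gene was *Gpc5*, where 1 library with counts among zeros has that gap by construction, which leaves 3 of 27 groups for the other members. Chance alone marks about 1 group in 20. Orchiectomized replicate 2 had 132 CPM of *Gpc1*, against 36 to 56.6 CPM in the other 4, and 157 CPM of *Sdc1*, against 53.2 to 63.1 CPM. DHT replicate 2 had 63.8 CPM of *Gpc3*, against 32.1 to 40.4 CPM. *Gpc5* was at 0.0885 CPM in orchiectomized replicate 2 and at 0.247 CPM in DHT replicate 4, with 0 in the rest of each group, which is 1 count and 2 counts.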

How the results depend on the processing

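Counts are of the 8 tested members other than *Gpc3*. For orchiectomized against control, 0 were called under every alternative and with any library left out. For DHT against orchiectomized, 1 was called, and 0 in the fit of only the groups compared, with limma voom, with an adjusted P below 0.05 or without DHT replicate 1, 3, 4 or 5; leaving out libraries gave 0 to 1. For DHT against control, 0 were called, 1 in the fit of only the groups compared, and 0 with any library left out.

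Some values changed sign, most of them near 0. For orchiectomized against control, *Gpc2* (0.01) was -0.0282 with DESeq2, -0.0109 with RLE size factors, -0.0339 with all genes counted and -0.0142 in the fit of the groups compared, and *Gpc4* (0.007) was -0.0158, -0.0156, -0.0354 and -0.0160 in the same order and -2.87e-05 with 10 counts in every library. *Gpc1* (0.29) was -0.083 with limma voom. For DHT against orchiectomized, *Gpc1* (-0.006) was 0.0284, 0.0285, 0.0492 and 0.0276 in that order, 0.0041 with 10 counts in every library and 0.36 with limma voom. *Gpc6* (-0.08) was 0.0067 with limma voom for DHT against control. Leaving out libraries moved these values from -0.0758 to 0.18 (*Gpc2*), -0.0740 to 0.0879 (*Gpc4*), -0.14 to 0.40 (*Gpc1*) and -0.0185 to 0.35 (*Gpc6*, 0.20 with all libraries) for orchiectomized against control, from -0.12 to 0.43 (*Gpc1*), -0.13 to 0.0187 (*Gpc4*) and -0.13 to 0.0266 (*Sdc4*) for DHT against orchiectomized, and from -0.11 to 0.0085 (*Gpc4*), -0.15 to 0.0453 (*Gpc6*) and -0.0482 to 0.15 (*Sdc4*) for DHT against control. The cause was not tested.

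Replicate numbers shared between groups did not pair the samples, since correlations of same-numbered deviations ran from -0.466 to 0.463. With the number as a block, 0, 1 and 0 members were called in the 3 comparisons, as without it, and the log2 fold change of *Gpc1* with DHT against orchiectomized was 0.0950. *Gpc3* kept its direction under every alternative tried. Pathway genes called lower with DHT against orchiectomized, 16 as reported, ranged from 8 to 16. DESeq2 gave no P for *Fgfr3*. Of the 5 genes most like *Gpc3*, 1 was shared with the top 5 by Spearman and 0 after subtracting group means. *Gpc5*, with at most 2 counts, cannot be compared at this depth.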
